A study of Mus musculus with 6 samples.

Results

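CpG-dense clusters far from any listed transcription start site (TSS) were described in cultured mouse spermatogonia. A CpG site was a member if it lay on an autosome more than 10000 bp from the closest TSS, had 10 or more reads in all 6 samples, and had 10 or more other sites of the table within 100 bp. Member sites 200 bp or less apart were merged. This gave 2540 clusters with 33097 sites, out of 71390 groups of sites of all kinds and 681804 sites with enough reads. The rule uses no methylation value, but it was chosen with earlier results of these data known. Density was counted over the sites that the assay covered, not over every CpG of the genome. Of 77358 autosomal sites that met the distance and density criteria at any coverage, 42.8% had enough reads. The table lists 1 TSS per gene, so a cluster may lie at an alternative start site, and whether a cluster is exonic, intronic, or intergenic was not determined here.

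The cells were germline stem (GS) cells, which are spermatogonia expanded in culture and which include spermatogonial stem cells. All samples had the genotype DBA/Tg14(act-EGFP-OsbY01), a DBA background with an EGFP transgene. Space GS cells (n = 3) were cryopreserved for 6 months on the International Space Station, and Ground GS cells (n = 3) for the same time on Earth, and both were cultured again on mouse embryonic fibroblast feeders with GDNF and FGF2 before DNA was taken. The labels do not say whether the replicates came from separate cultures, so p-values measure only the spread between these samples.

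Most CpGs of the mammalian genome are methylated, and most CpG-dense stretches, the CpG islands, are not. Many islands lie at promoters, and others, called orphan islands, lie within or between genes, where they can be start sites of unlisted transcripts, regulatory elements, or remnants of repeats. In male germ cells the imprints of the mother have been erased and those of the father set, so the germline regions that are methylated on the maternal allele in somatic cells carry little methylation. Reduced representation bisulfite sequencing (RRBS), which reads fragments cut at CCGG sites, samples such dense stretches preferentially.

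The reads summed over all sites ranged from 28535973 to 33743845 per sample, and the median coverage of member sites ranged from 28 to 34 reads. A level of 50% read from 20 reads has an exact (Clopper-Pearson) 95% interval of 27.2% to 72.8%, which covers counting error only. As a check of the cell type, sites within 1000 bp of the listed TSS were read at genes with maternally methylated imprinted promoters. They had mean levels of 1.21% to 3.13% at Peg3, Peg10, Nnat, Plagl1, and Impact, and Snrpn, Mest, and Zrsr1 had no covered site. With 1 TSS listed per gene, whether these sites lie in the imprinted regions was not determined, so the check is limited. Promoters of the germ cell genes Ddx4, Dazl, Mael, Sycp3, and Sohlh2 were at 0.740% to 2.81%, and Tex101 had no covered site.

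The clusters fell into an unmethylated majority and a methylated minority. The DNA methylation level of a cluster is the percent of methylated reads over all its sites, and the level over the 6 samples was their mean. Of 2540 clusters, 1656 (65.2%) were low (under 20%), 285 (11.2%) were intermediate (20% to 80%), and 599 (23.6%) were high (over 80%). Of the low clusters, 1533 were under 5%, 206 under 1%, and 12 at 0 in every sample, and the low class had a median of 1.84%. The high class had a median of 94.6%. The mean level per sample was 30.2%, 30.1%, and 29.9% in Space and 30.4%, 29.6%, and 29.5% in Ground GS cells.

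**Figure D1:**
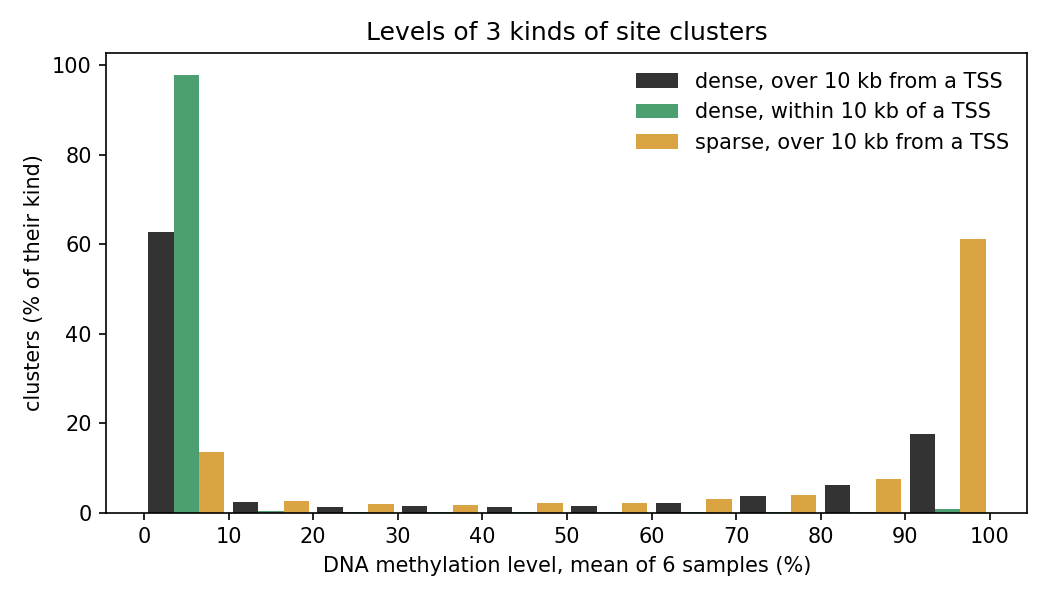
Share of clusters (y axis, % of each kind) in steps of 10 percentage points of the DNA methylation level (x axis, mean of 6 samples), for dense clusters over 10 kb from a TSS, dense clusters nearer to a TSS, and sparse groups of sites over 10 kb from a TSS. Of the far dense clusters, 62.8% are in the lowest step and 17.5% in the highest, against 97.9% and 0.821% for the near dense clusters.

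The far clusters were methylated more than equally defined dense clusters near a TSS and less than sparse sites at the same distances. The 16200 dense autosomal clusters within 10000 bp of a TSS had a mean level of 3.15%, with 98.2% of them low and 165 high. The far clusters exceeded them by 26.8 percentage points ± 0.145 (SD, n = 6), in 6 of 6 samples (exact sign-flip test, two-sided, p = 0.031, the smallest that 6 samples can give). The 52193 groups of sparse sites over 10000 bp from a TSS had a mean level of 74.4%, with 68.6% of them high. The far clusters were 44.5 percentage points ± 0.150 (SD, n = 6) below these, in 6 of 6 samples (exact sign-flip test, two-sided, p = 0.031). All 6 samples were read over the same clusters, so neither p covers the spread between clusters.

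The gap to the near clusters depended on density and size. Member sites with 10 to 14 other sites within 100 bp averaged 21.7% (14689 sites), those with 15 to 19 averaged 3.20% (9276 sites), and those with 20 to 29 averaged 1.92% (8213 sites). Near a TSS the same steps gave 2.55%, 1.73%, and 1.36%. When 20 or more other sites were required, there were 528 clusters, which exceeded the near clusters by only 0.585 percentage points. Cluster size counts only member sites, and even a cluster of 1 site had 10 or more other sites within 100 bp. The 321 clusters of 1 site averaged 52.4% and the 249 of 2 sites 46.0%. The 959 of 3 to 9 sites averaged 42.2%, the 707 of 10 to 29 sites 9.52%, and the 304 of 30 or more sites 1.93%. Near clusters of 30 or more sites were at 1.60%, and the difference of 0.328 percentage points ± 0.0680 (SD, n = 6) was positive in 6 of 6 samples (exact sign-flip test, two-sided, p = 0.031). The medians were closer, at 1.58% far and 1.56% near. Of these clusters, 2 of 304 far and 1 of 4386 near ones were intermediate. The 6 samples share the same clusters, so this p does not cover the spread between clusters.

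Mean methylation was also higher at greater distances from the TSS, up to 500 kb. The 836 clusters at 10 to 20 kb averaged 19.8%, the 886 at 20 to 50 kb 25.7%, the 399 at 50 to 100 kb 32.0%, the 373 at 100 to 500 kb 55.9%, and the 46 beyond 500 kb 66.4%. Among clusters of 3 to 9 sites the first 4 of these classes were at 28.8%, 36.2%, 45.0%, and 70.5%, and the 28 beyond 500 kb were lower, at 64.8%. Among those of 10 or more sites the first 4 were at 5.29%, 6.62%, 8.88%, and 14%. The medians of these large clusters did not rise, at 1.76%, 1.71%, 1.79%, and 1.70%. Their share of high clusters went from 2.41% to 3.94%, 5.49%, and 12.2%. The SD over the 6 samples was at most 0.548 in each of these 8 classes up to 500 kb. It measures the spread of samples over the same clusters, not the spread between clusters. The steps between classes, which hold different clusters, were not tested. Clusters on the downstream side of their TSS (1509) had a median of 2.63% and those on the upstream side (1031) of 3.01%.

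Read depth moved with both. Clusters averaging 10 to 20 reads per site had a mean level of 56.1% (484 clusters), those with 20 to 30 reads 37.3% (818), those with 30 to 50 reads 15.6% (1071), and those with 50 or more 10.1% (167). Near a TSS the corresponding means were 5.92%, 4.39%, 2.42%, and 2.58%, so the far clusters were higher in each of the 4 classes of depth. The part of depth in the relation of level to size and distance was not tested. At the edges of the rule, sites with exactly 10 neighbours had a mean level of 32.6% (3901 sites) and those just outside, with 9, of 40.2% (4772 sites). Dense sites at 10 to 11 kb were at 8.20% (1131 sites) and those at 9 to 10 kb at 5.61% (2098 sites).

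**Figure D2:**
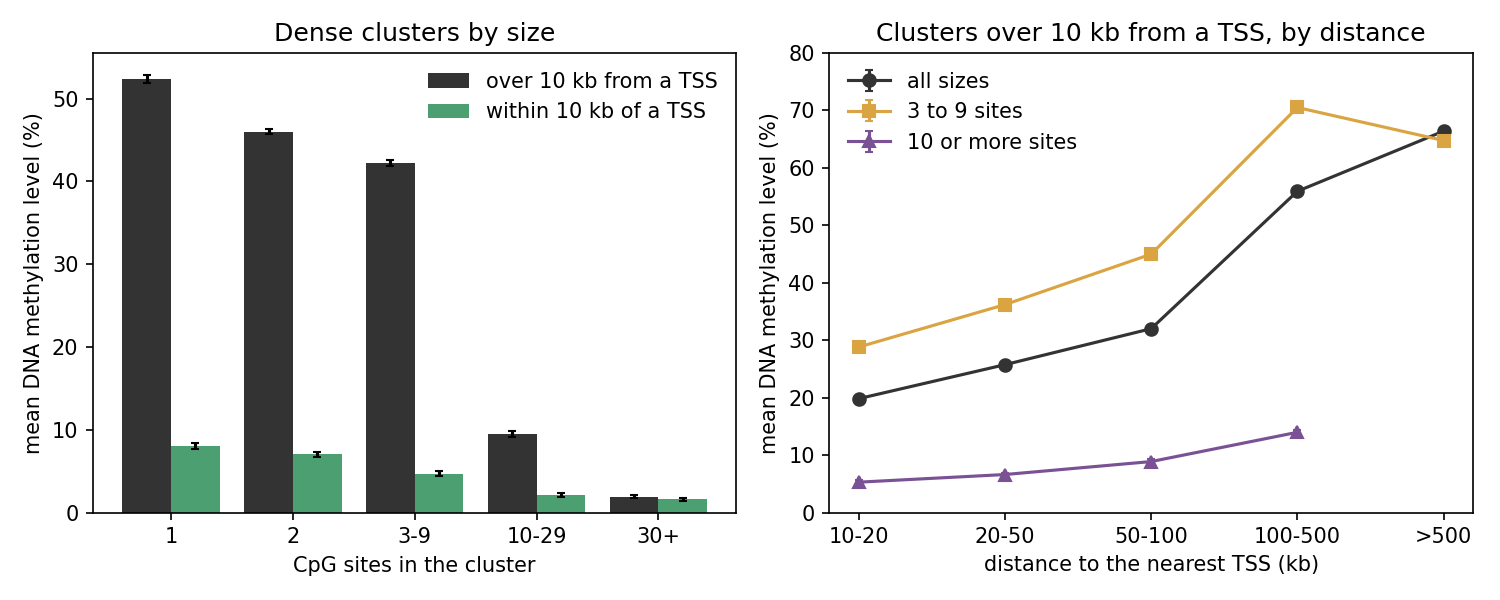
Mean DNA methylation level of dense clusters (y axes, %), left by the number of CpG sites for clusters over and within 10 kb of a TSS, right by distance to the nearest TSS for the far clusters, with error bars of 1 SD over the 6 samples and classes of under 20 clusters not drawn. The level fell from 52.4% in far clusters of 1 member site to 1.93% in those of 30 or more. Clusters of 10 or more sites stayed at 14% or less up to 500 kb.

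The largest clusters were unmethylated. Apart from the cluster nearest Esp38, treated separately, the cluster with the most sites was chr15:85554779-85556201 (build mm39, as are all coordinates here), with 153 sites over 1423 bp, 17 kb downstream of the TSS of Lncppara, a long noncoding RNA gene. Its levels were 1.56%, 1.56%, and 2.22% in Space and 0.982%, 1.36%, and 1.21% in Ground GS cells, all of them low. The cluster chr12:109018310-109019849 had 128 sites, 14.3 kb downstream of the TSS of Begain, whose product binds guanylate kinase domains at synapses, and lay between 1.18% and 2.54% in the 6 samples. The cluster chr15:87508370-87509404 (121 sites, 79.9 kb from Tafa5, a secreted chemokine-like protein) was between 1.15% and 2.46%. The cluster chr17:28704335-28705354 (112 sites, 31.1 kb from Fkbp5, a co-chaperone of steroid receptors) was between 0.921% and 2.00%. Gm48708 (110 sites), 6530409C15Rik (108 sites), and Mon2 (107 sites) completed the largest clusters, with means over 6 samples of 2.06%, 1.51%, and 1.26%. Within low clusters of 3 or more sites, the SD between sites had a median of 0.892 percentage points.

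Size counts only sites that met the read and density minimums, so the dense stretch around a cluster can be longer. By that count high clusters were short. Their median was 3 sites and 30 bp, against 11 sites and 121 bp for the low class. Their median distance was 51.9 kb against 25 kb, and their median depth was 21.8 against 33.8 reads per site. The largest were chr2:83760812-83761127 (19 sites, Zswim2, a ubiquitin ligase gene of the testis) and chr9:121995638-121995993 (19 sites, Gm47121). Zswim2 was at 83.4%, 83.9%, and 85.2% in Space and 80.2%, 82.4%, and 80.9% in Ground GS cells. The groups did not overlap there, by a difference of 2.99 percentage points that did not pass the test across clusters (quasi-binomial test moderated with limma, adjusted p = 0.867). Gm47121 was between 96.5% and 98.0%. The cluster nearest Vmn1r41, a vomeronasal receptor gene (chr6:89739046-89739336, 18 sites), averaged 80.7%, and its sites had an SD of 18.8 percentage points, the widest among these 5. Kif26a (17 sites) averaged 97.7%, and Gm28340 (16 sites), 557 kb from its TSS, 93.7%.

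Intermediate clusters had the least even levels. In those of 3 or more sites the SD between sites had a median of 9.89 percentage points, against 3.46 in the high class. The largest was chr8:124348723-124348969 (35 sites, 31.7 kb upstream of Rhou, a small GTPase), with 26.1%, 43.9%, and 15.7% in Space and 11.6%, 28.5%, and 27.6% in Ground GS cells. The samples of each group were spread over the range of the other. The cluster chr2:168412805-168413364 (32 sites, Nfatc2, a transcription factor activated by calcineurin) was at 44.9%, 49.3%, and 47.3% in Space and 41.2%, 48.6%, and 38.8% in Ground GS cells. Tnrc18 (20 sites) averaged 52.4%, Pate4, a secreted protein of the male genital tract (20 sites), 77.8%, and Pde4a, a cAMP phosphodiesterase (18 sites), 25.9%.

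The table named 1977 distinct nearest genes, and 411 of them were nearest to more than 1 cluster, of which 271 had only low clusters, 33 only high, 7 only intermediate, and 47 both low and high ones. Lists of genes were read against the median of all 2540 clusters, 2.72%. The 77 clusters nearest a developmental transcription regulator (51 genes of families such as Hox, Pax, Sox, and Fox) had a median of 2.15%, with 67 low, 3 intermediate, and 7 high. The 58 clusters nearest Zfp, Zscan, or Zbtb zinc finger genes had a median of 2.49%, with 40 low and 11 high. The 909 clusters nearest predicted Gm genes or RIKEN clones had a median of 3.16%, with 555 low and 242 high. The 39 clusters nearest olfactory and vomeronasal receptor genes, which lie in large arrays, had a median of 84.6%, with 9 low, 8 intermediate, and 22 high. Their medians were 5 sites and 22.2 reads per site, against 7 and 29.6 over all far clusters. The part of size and depth in this level was not tested. Those nearest small RNA hosts were Mir670hg (1.35%) and Mir9-3hg (1.98%).

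The large clusters nearest a developmental regulator that are named here were all low in every sample. They were picked by number of sites, and 302 of all 304 far clusters of 30 or more sites were low. The largest were at Satb1, a chromatin organizer (chr17:52119946-52120637, 72 sites), and Foxo6 (chr4:120125189-120125898, 67 sites), with means of 1.87% and 1.41%. Prrx2 (43 sites, 1.72%), Foxe1 (40 sites, 1.66%), Mnx1 (38 sites, 2.15%), and Pax7 (37 sites, 1.82%), all homeobox or forkhead genes, had similar means. Bcl11b, a zinc finger regulator of T cells (41 sites, chr12:107882422-107883187), was the highest, with 5.15%, 1.91%, and 3.39% in Space and 6.07%, 2.17%, and 2.40% in Ground GS cells.

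All 16 clusters whose nearest gene belonged to a list of imprinted genes and their neighbours were low, with means between 0.943% and 7.26%. Of them, 5 lay within chr2:174169630-174172384, upstream of the start of Gnasas1, the antisense transcript of the Nesp promoter in the Gnas domain. The largest of these (57 sites) was at 1.11%, 2.31%, and 1.60% in Space and 0.842%, 0.941%, and 2.05% in Ground GS cells. The other 4 averaged 1.99%, 2.59%, 3.25%, and 2.63%. Both clusters near Grb10, a growth inhibitor (chr11:11975610-11975914 with 25 sites and chr11:11976194-11976463 with 31 sites), averaged 2.96% and 3.74%. Plagl1, a zinc finger gene (33 sites), averaged 2.33%, and Impact (15 sites) 1.89%. Dlk1, a Notch ligand (chr12:109403845-109403878, 5 sites, 14.9 kb upstream), was at 0%, 1%, and 0.816% in Space and 5.53%, 1.03%, and 3.18% in Ground GS cells. The highest was chr7:142311416-142311468, 14.3 kb upstream of Ins2, an insulin gene beside Igf2 and H19, with 5 sites. It was at 5.53%, 3.38%, and 4.71% in Space and 10.8%, 6.43%, and 12.6% in Ground GS cells. Every Space sample lay below every Ground sample at Dlk1 and Ins2, by 2.64 percentage points at Dlk1 and from a Ground mean of 9.97% to a Space mean of 4.54% at Ins2, and neither passed the test across clusters (quasi-binomial test, adjusted p = 0.842 and 0.848). The other 14 clusters overlapped between the groups. Of all dense clusters, 4% had every Space sample below every Ground sample and 5.23% the reverse, so 2 of 16 is a small count to set beside these shares.

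**Figure D3:**
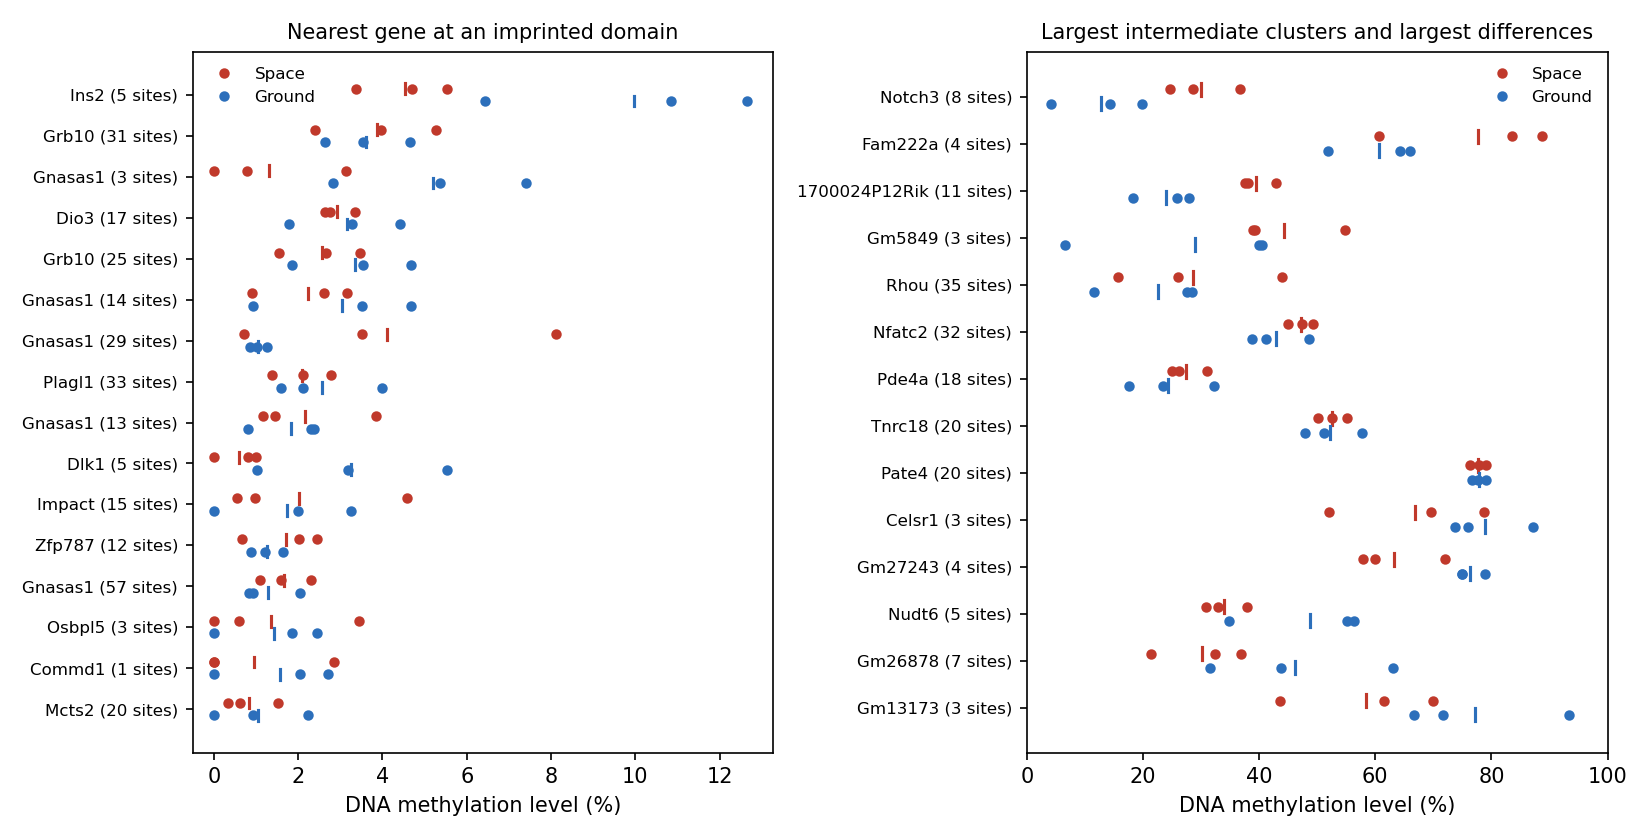
DNA methylation level (x axes, %) of each sample, in Space (red) and Ground (blue) GS cells, with the group mean as a vertical tick; left, clusters whose nearest gene is on the imprinted list, right, the largest intermediate clusters and clusters of 3 or more sites among those with the largest differences, ordered by difference. On the left only Ins2 exceeds 10%, in 2 Ground samples, and on the right the 3 values of a group often span more than the difference of the means.

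The cluster with the most sites and the deepest coverage stood apart from the others. It spanned chr17:40153918-40159616, with 435 sites in 5699 bp, and its nearest TSS, 101795 bp away, was that of Esp38, an exocrine gland peptide gene. It held 44.7% of all reads over member sites. In the gene order of RefSeq for GRCm38.p6, another build, Esp38 is next to AY036118 and Rn18s-rs5, the latter a sequence related to 18S ribosomal RNA. Ribosomal RNA genes occur in many near-identical copies, so a level here may be an average over copies. The levels were 9.80%, 9.13%, and 9.27% in Space and 9.88%, 8.98%, and 8.94% in Ground GS cells, and the means differed by 0.136 percentage points, less than the SD within either group (0.350 and 0.529). The median of its sites was 8.86%, above the median of low clusters. Single sites ranged from 0.207% to 97.8%. The 35 sites with under 100 reads in at least 1 sample averaged 40.6%, and the 400 sites with 100 or more reads in every sample 9.39%. In steps of 500 bp the level went from 7.60% to 19%.

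**Figure D4:**
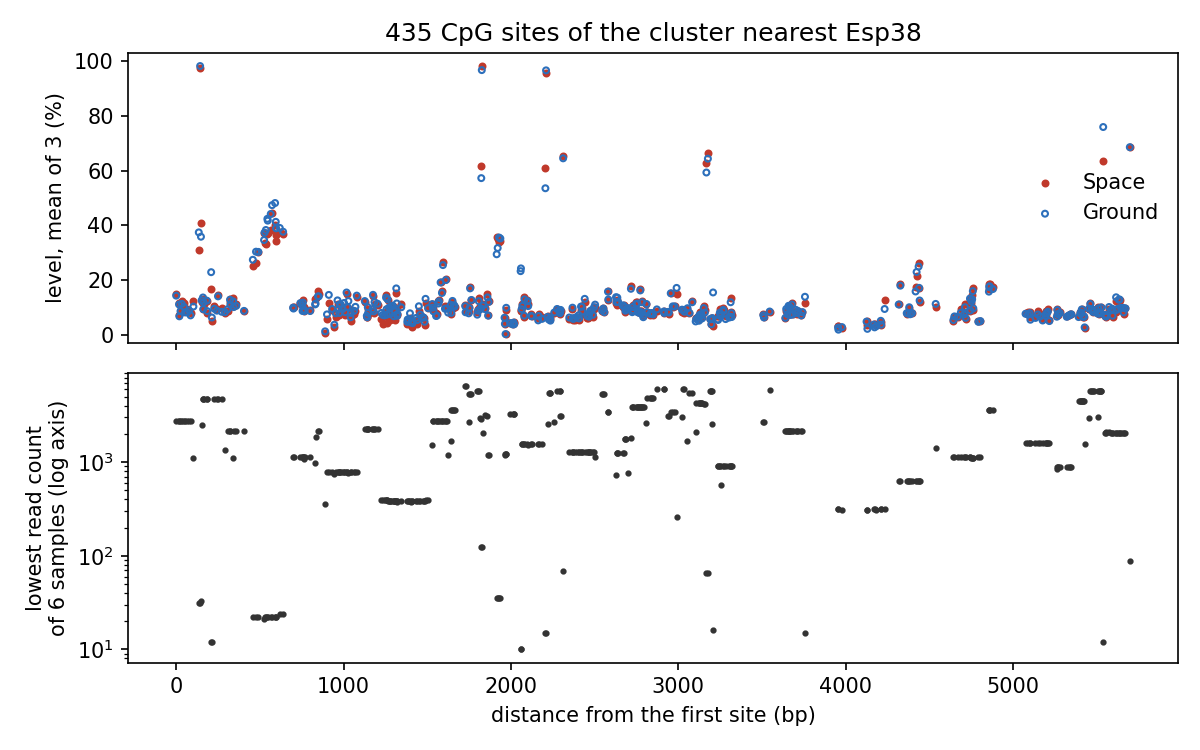
The 435 CpG sites of the cluster nearest Esp38, by distance from its first site in bp, with the mean DNA methylation level of 3 Space (filled) and 3 Ground (open) samples above (%) and the lowest read count of the 6 samples below on a log axis. Most sites lie near 8.86% in both groups, and many of the higher ones are sites of low coverage.

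A further 6 clusters averaged more than 500 reads per site, and all 7 had levels from 2.83% to 12.9%. Gm11670 (chr11:108902614-108902755, 13 sites) had a median coverage of 4989 reads and levels of 7.53%, 6.89%, and 6.86% in Space and 7.24%, 6.65%, and 7.08% in Ground GS cells. Gm37350 (chr3:5925729-5925801, 11 sites) averaged 11.3%, with 66.1% over its 5 sites of under 100 reads in at least 1 sample and 10.2% over the other 6. Vmn1r261 (chr6:3201433-3201558, 13 sites) averaged 12.9%, and Filip1l, a gene of an actin-associated protein (chr16:57211652-57211865, 20 sites), 8.67%. Of the low clusters, 75% were at 2.66% or less, below all 7. Copies of these stretches elsewhere in the genome were not examined.

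The 5 clusters farthest from a TSS lay 1158 to 1589 kb away and differed in level. Ppp6c (5 sites) averaged 90.9%, Gm48421 (5 sites) 79.5%, Cdh20 (1 site) 66.8%, Pcdh7 (2 sites) 19.3%, and B3galt2 (3 sites) 6.98%. B3galt2 was at 5.77%, 12.1%, and 1.23% in Space and 2.50%, 4.62%, and 15.7% in Ground GS cells, so its groups overlapped throughout.

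The mean levels of Space and Ground GS cells lay within 1 percentage point of each other in every class of level. The mean cluster level was 30.1% ± 0.158 in Space and 29.8% ± 0.482 in Ground GS cells (SD, n = 3 per group), and the difference was 0.206 percentage points (exact permutation test, two-sided, p = 0.5, where 3 samples against 3 cannot go below 0.1). This comparison rests in part on single samples. Ground replicate 1 had the highest mean of the 6 samples, and without it the difference was 0.482 percentage points. All 3 Space samples were then above both remaining Ground samples (exact permutation test, p = 0.1, the smallest possible). Without Ground replicate 3 the difference was 0.0351 percentage points. Leaving out any 1 sample other than Ground replicate 1 gave p from 0.4 to 0.9 (exact permutation test). With each member site weighted equally the means were 11.1% ± 0.171 and 11% ± 0.363 (SD, n = 3 each; exact permutation test, p = 0.6). The difference was 0.0816 percentage points in the near dense clusters, and far clusters exceeded near ones by 26.9 ± 0.131 percentage points in Space and 26.7 ± 0.154 in Ground GS cells (SD, n = 3 per group; exact permutation test, p = 0.4). The low clusters averaged 2.63% ± 0.262 and 2.52% ± 0.505, the intermediate ones 56.9% ± 0.582 and 56.0% ± 1.24, and the high ones 93.1% ± 0.241 and 93.0% ± 0.152 in Space and Ground GS cells (SD, n = 3 each; exact permutation test, p = 0.7, 0.3, and 0.5). Per sample, 1647 to 1660 clusters were low in Space GS cells and 1644 to 1665 in Ground GS cells, 279 to 297 and 288 to 292 were intermediate, and 591 to 601 and 587 to 604 were high (exact permutation tests over the 3 classes, all adjusted p = 1).

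No cluster was called. Of 2540, 2526 were tested, since 12 were at 0% and 2 at 100% in every sample. Over all 19082 dense clusters tested, 0% were called at an adjusted p under 0.05 (quasi-binomial test, Benjamini-Hochberg), none of them a far cluster, and the smallest adjusted p of a far cluster was 0.842. At an unadjusted p under 0.05, 70 far clusters were higher and 38 lower in Space GS cells, or 2.77% and 1.5%, beside 3.62% and 2.19% of all dense clusters. Without any adjustment, 108 far clusters had a p under 0.05. This number was 67 with edgeR, 87 with limma, 152 with the fit on far clusters only, and 264 with the replicate number as a block. Each of these fits called 0. The shares over all dense clusters in these other fits are not given here, so their counts cannot be read as particular to far clusters. All 3 Space levels lay above all 3 Ground levels in 149 far clusters (5.90%) and below in 104 (4.12%), beside 5.23% and 4% of all dense clusters. A difference of more than 10 percentage points was found in 80 far clusters (3.17%), beside 0.566% of all dense clusters, and 64 of these 80 were intermediate. Among intermediate clusters it was found in 22.5% of the far and 10.9% of the near ones, the latter being 14 of 128. The median absolute difference of intermediate clusters was similar, at 4.40 percentage points far and 4.23 near.

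**Figure D5:**
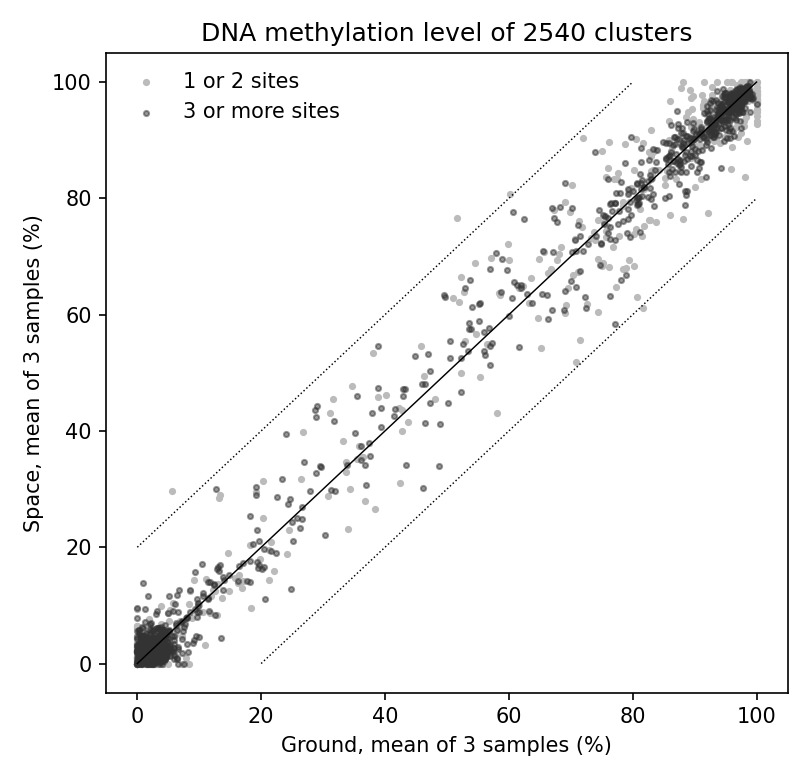
Mean DNA methylation level of each of the 2540 clusters in Ground (x axis) and Space (y axis) GS cells, in % and as means of 3 samples; grey points have 1 or 2 sites, black points 3 or more, the solid line marks equal levels and the dotted lines a difference of 20 percentage points. The 4 points outside the dotted lines are grey, and the points crowd at both ends of the diagonal.

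The spread between samples followed the level. The median SD within the group was 1.07 and 1.10 percentage points in low clusters (Space and Ground GS cells), 5.69 and 6.62 in intermediate ones, and 2.53 and 2.53 in high ones. The 4 clusters that differed by more than 20 percentage points, singled out after their values were seen, had 1 or 2 sites and fewer than 20 reads at a site in at least 1 sample. They were Garin2 (higher by 25 percentage points in Space GS cells, 2 sites), Gm45659 (by 24.1, 1 site), 4930548G14Rik (by 20.6, 1 site), and Gm29323, which was at 61.1% ± 11.7 in Space and 81.7% ± 6.62 in Ground GS cells (SD, n = 3 each, 1 site). In none of the 4 did the groups overlap, and their smallest adjusted p was 0.842 (quasi-binomial test).

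Among clusters of 3 or more sites the differences stayed under 20 percentage points. Notch3, a Notch receptor gene (chr17:32360279-32360351, 8 sites, 25.5 kb downstream), was highest in Space GS cells relative to Ground GS cells, with 24.6%, 28.7%, and 36.8% against 19.8%, 14.3%, and 4.17%, a difference of 17.3 percentage points. The cluster nearest 1700024P12Rik (chr17:3094324-3094417, 11 sites) was at 42.9%, 37.6%, and 38.1% in Space and 25.8%, 28.0%, and 18.2% in Ground GS cells, and the means differed by 15.5 percentage points. In both, every Space sample was above every Ground sample, and neither passed the test (quasi-binomial test, adjusted p = 0.842 for both). Fam222a (higher by 17) and Gm5849 (by 15.2 percentage points) were also among the largest, and in both the groups overlapped. In the other direction Gm13173 lay between 43.6% and 70% in Space GS cells, with a mean of 58.4%, and between 66.7% and 93.3% in Ground GS cells, with a mean of 77.2%. Gm26878 averaged 30.2% and 46.2%, Nudt6 33.9% and 48.7%, Gm27243 63.3% and 76.3%, and Celsr1, an adhesion receptor of planar cell polarity, 66.8% and 79.0% in Space and Ground GS cells. Only at Gm27243 were all 3 Space samples below all 3 Ground samples among these 5. No adjusted p of these clusters was below 0.842.

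Some clusters varied widely over the 6 samples, and did so within both groups. Gng4, a G protein subunit gene (chr13:13896183-13896199, 5 sites), was at 66.0%, 36.4%, and 32.3% in Space and 67.7%, 40%, and 34.3% in Ground GS cells. There the samples with the same replicate number were close to each other, and the Space sample was the lower of each such pair. Trim43b, a gene of preimplantation embryos (3 sites), ranged from 27.0% to 74.1% and Bola3, a gene of iron-sulfur cluster assembly (6 sites), from 34.8% to 78.9%.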

How the data were processed

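RRBS libraries of 3 Space and 3 Ground samples were analysed, grouped by title. The submitters' processing notes name Bismark 0.24.2, Trim Galore, methylKit, and the build mm39. The authors deposited a count of reads covering each CpG and the percent of them that were methylated, with the closest TSS. Methylated reads were recovered from both columns. The main test was a quasi-binomial model of methylated reads out of all reads, fitted over all dense clusters, sex chromosomes included. It used limma 3.58.1 in R 4.3.3 and Benjamini-Hochberg adjustment. The test was run on simulated data, but the share of changes it recovers is not given here, so its power is not shown. edgeR 4.0.16 and limma on log2 ratios were alternatives. Values per sample were compared by exact permutation and sign-flip tests. The members, gene lists, and rules were chosen with earlier results of these data known. Named clusters were those with the most sites (in all, by class of level, and at developmental regulators), the farthest, deepest, most different, and most variable ones, and all at imprinted genes; a few that met these rules are not reported here. The reference at hand was GRCm38, in which only 5.20% of member sites fell on a CG, so no sequence is printed. Between replicates of a group the chi-square per degree of freedom was 3.08 to 4.15, with every CpG call taken as independent. Sites of a cluster can be read by the same reads, which raises this ratio. In 369 of 1970 clusters of 3 or more sites, every site had the same coverage within each sample. The ratio therefore does not separate differences between replicates from sampling noise.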

Additional observations from a re-analysis of the deposited data

How the results depend on the processing

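No far cluster was called under any of the alternatives, in which the coverage minimum, density, distance, merging, minimum number of sites, test, or samples fitted were changed; this includes the fit with the replicate block, which called 0 clusters. The smallest adjusted p of a far cluster was 0.324 with the replicate block and at least 0.630 in every other fit. The deviations of same-numbered samples from their group means, over 721 clusters, had correlations of -0.0580 to 0.0840 over the 3 pairs. Of 6 samples, 4 correlated best with their own number. The mean level was highest in replicate 1 and lowest in replicate 3 in both groups. Same-numbered Space and Ground samples also carry consecutive numbers in their sample descriptions. With the replicate block 264 far clusters had an unadjusted p under 0.05 (quasi-binomial test), against 108 without it. The share over all dense clusters with the block is not given here, so this rise cannot be read as particular to far clusters. The labels name no pairs, and whether the numbers are pairs was not settled. The main tests ignore the numbers, so they may overlook a pairing. The mean difference with the replicate block was 0.206 percentage points (exact sign-flip test over 3 pairs, p = 0.5). Without single replicates the mean difference ranged from 0.0351 to 0.482 percentage points, the latter without Ground replicate 1, and stayed positive. The number of clusters differing by more than 20 percentage points was 4, and 18 with a minimum of 5 reads, 0 with a minimum of 20 reads, 0 with 20 or more neighbours, 2 beyond 50000 bp, 0 with at least 3 sites, and 6 to 10 without single replicates. The number of clusters was 528 with 20 or more neighbours and 821 beyond 50000 bp. The intermediate share of 11.2% became 13.2% with a minimum of 5 reads, 6.93% with 20 reads, 0.568% with 20 or more neighbours, 15.1% beyond 50000 bp, 12.1% merged at 500 bp, and 8.48% with at least 3 sites. The excess over near clusters (26.8 percentage points) ranged from 0.585 with 20 or more neighbours to 39.7 beyond 50000 bp. It was 14.7 with a minimum of 20 reads. The deficit against sparse groups ranged from -71.8 to -30.8. Both kept their direction, and every p stayed at 0.031, the smallest that 6 samples can give (exact sign-flip test). All 6 samples were read over the same clusters, so a small gap also reaches this p, and its constancy adds no support. The near and sparse sets changed with the limits of each setting. Beyond 50000 bp, for example, the near clusters included all those up to that distance. Chosen after seeing the data were weighting each site equally (0.158 percentage points) and leaving out the cluster nearest Esp38 (0.206).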
